A study of Arabidopsis thaliana with 7 samples.

Results

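The mutants atnp01 and atnp02 of Arabidopsis thaliana, accession Ler-0, are a pair of lines that tolerate cadmium sulfide quantum dots (CdS QDs), and they were set against each other at each of the doses both had received. Members were chosen by label: the 2 atnp01 arrays and the 2 atnp02 arrays, each line at 0 and 80 mg/L CdS QDs, make 4 of the 7 ATH1 arrays of the series. Plants germinated for 14 days and then spent 21 days on medium with the stated dose, and each group is 1 array of seedling RNA. WT arrays at 0, 40 and 80 mg/L of the same accession are given beside the mutants as a description. Both lines share the Ler-0 background and the selection for resistance, and neither is a control for the other. No source used here names the genes disrupted in the mutants, or says whether an array stands for 1 plant or a pool.

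CdS QDs are nanometre-sized crystals of a cadmium salt, and plants meet cadmium with thiol peptides that bind the metal, with transport into the vacuole and with the sulfur and iron nutrition genes that respond to it. A line can tolerate a toxicant by several unrelated routes, among them uptake, storage, wall properties and the repair of damage, so tolerance alone does not say that 2 lines share a transcript profile.

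Of 13355 genes with a probe set that names them alone, 2060 reached log2 6 on the brightest of the 4 mutant arrays and were compared. All values are log2 intensities as deposited. Every difference is atnp01 minus atnp02, so a positive one means a higher level in atnp01. A difference of log2 1 was taken as 2-fold. The lines were also compared over both doses with limma, with line and dose as terms, and genes with an adjusted p under 0.05 were called. This fit has 1 residual degree of freedom. Its p-values set the mean difference against an error taken from the disagreement of the 2 doses, moderated across genes. Since no group has a second sample, they do not measure the spread between samples of a group. In such bulk samples, fewer cells of a type and less RNA per cell cannot be told apart.

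The lines were close to each other at both doses. At 0 mg/L, 11 of the 2060 genes (0.534%) were at least log2 1 apart, 9 higher and 2 lower in atnp01. With 80 mg/L, 10 genes (0.485%) were that far apart, 2 higher and 8 lower in atnp01. The difference lay within log2 0.5 for 96.1% of genes at 0 mg/L and for 96.8% at 80 mg/L. Its median was 0.06 with an SD across genes of 0.239 at 0 mg/L, and 0.03 with an SD of 0.221 at 80 mg/L. More genes differed between doses than between lines: 235 genes in atnp01 and 236 in atnp02 were at least log2 1 apart between 80 and 0 mg/L of the same line.

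What parted the lines at one dose was mostly not what parted them at the other. Of the 16 genes at least log2 1 apart at either dose, 2 were so in the same direction at both (0.0971% of genes tested), 3 were so in opposite directions, 6 at 0 mg/L only and 5 at 80 mg/L only. Of the 11 genes apart at 0 mg/L, 3 kept their sign at 80 mg/L, and of the 10 apart at 80 mg/L, 6 kept theirs at 0 mg/L. The floor of log2 6 fixed some of these signs, so the counts are a description. AT2G20870, AT5G22430, AT5G33370, AT3G28270 and AT4G19430 reached it on the exposed atnp02 array alone, which fixed their sign at 80 mg/L. AT1G73120 reached it on the unexposed atnp02 array alone, which fixed its sign at 0 mg/L. AT1G13880 and AT2G16005 reached it on both arrays of 1 line alone, which fixed both signs. Across all 2060 genes, the difference at 0 mg/L and that at 80 mg/L correlated at Pearson r = 0.174 and Spearman rho = 0.262, as a description across genes, which are not independent replicates. The differences had the same sign for 58.8% of genes. The correlation was 0.250 across the 2044 genes without those 16, and 0.108 across the 2057 genes without the 3 that the limma fit called. The 2 differences share no array, though each rests on a single pair.

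**Figure D1:**
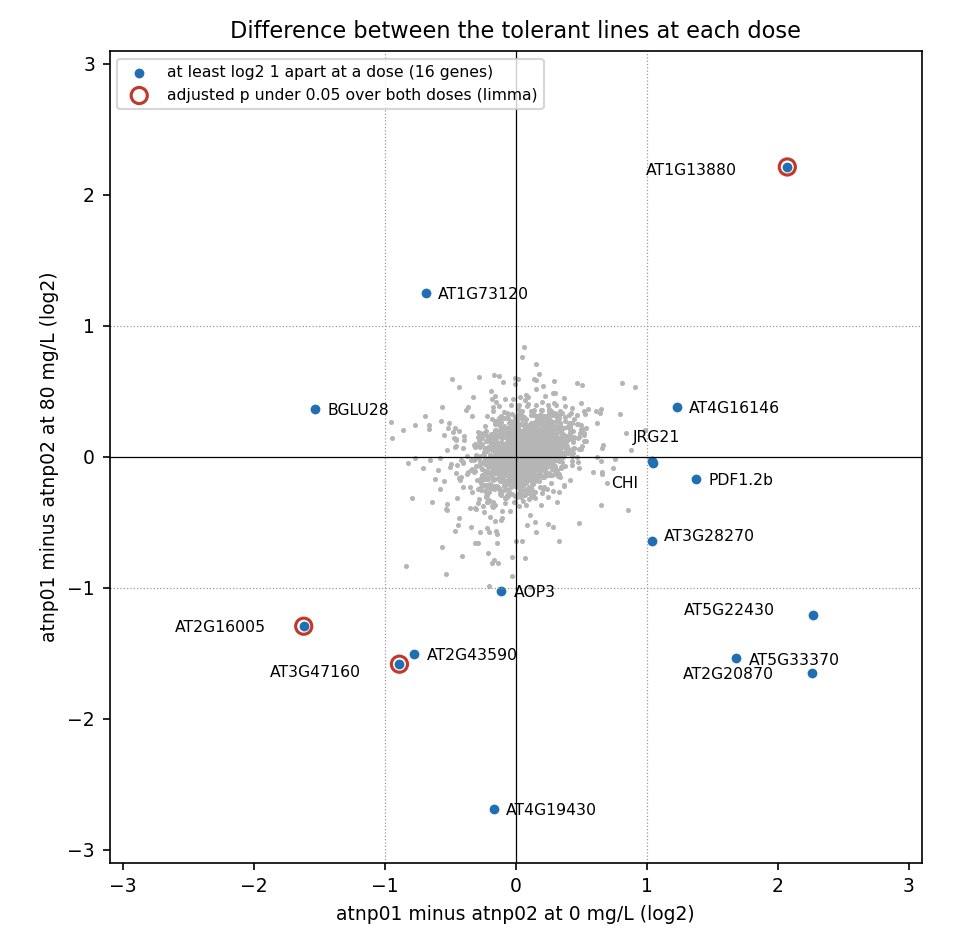
Each point is 1 of the 2060 genes, with atnp01 minus atnp02 at 0 mg/L on the horizontal axis and at 80 mg/L on the vertical axis, both in log2 units, and dotted lines at 1 and -1. Grey points are within log2 1 at both doses, the 16 blue points are at least log2 1 apart at a dose, and the 3 ringed genes were called by limma. AT1G13880 stands alone at the upper right at 2.07 and 2.21, and AT2G20870, AT5G22430 and AT5G33370 lie at the lower right, where the sign turns between doses.

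Over both doses the limma fit called 3 of 2060 genes (0.146%), 1 higher in atnp01 (0.0485%) and 2 lower (0.0971%). At an unadjusted p under 0.05 there were 276 genes, 13.4% of those tested. The called genes were AT1G13880, AT2G16005 and AT3G47160, and the first 2 are also the genes at least log2 1 apart in the same direction at both doses. These 2 reached log2 6 on both arrays of 1 line and on neither array of the other. The floor thus fixed their sign at both doses, though not the size of the difference.

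AT1G13880, which the gene table lists with the synonym ELM2, a domain found in chromatin-associated proteins, had log2 6.84 and 7.03 at 0 and 80 mg/L in atnp01, against 4.77 and 4.82 in atnp02. WT had 4.87, 4.71 and 4.87 at 0, 40 and 80 mg/L. Both atnp01 arrays were thus above the other 5 arrays, and atnp02 lay beside WT at both doses. The dose made little difference in any line, at 0.18 in atnp01 and 0.05 in atnp02 between 80 and 0 mg/L. The difference between the lines was 2.07 at 0 mg/L and 2.21 at 80 mg/L, with a limma coefficient of 2.14 (SE 0.11) and an adjusted p of 0.000199. It was called in 8 of 10 other settings, with adjusted p from 1.01e-05 to 1, and the call was lost without the dose term and without the floor on dim genes.

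The nearest genes with values here on either side of it on the chromosome were not apart in this way. AT1G13910, 3 genes away in the order of the gene table, had 3.88 and 4.23 in atnp01, against 3.38 and 3.99 in atnp02, with differences of 0.50 and 0.24. AT1G13830, 5 genes away, had 2.53 and 2.95 in atnp01, against 2.53 and 2.50 in atnp02. Both genes were dim on all 4 arrays and fell short of the level needed for a test.

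AT2G16005, whose product belongs to the MD-2-related lipid recognition proteins, had log2 5.26 and 5.65 at 0 and 80 mg/L in atnp01, against 6.88 and 6.94 in atnp02. WT had 5.81, 3.92 and 6.20 at 0, 40 and 80 mg/L. At 0 and at 80 mg/L, WT lay between the lines, with atnp01 below it and atnp02 above it. The WT array at 40 mg/L was lower than any of the others, so the gene varied within WT by more than between the lines. The difference was -1.62 at 0 mg/L and -1.29 at 80 mg/L, with a limma coefficient of -1.46 (SE 0.11) and an adjusted p of 0.00117. It was called in 5 of the 9 other settings that could test it, with adjusted p from 6.75e-05 to 1.

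AT3G47160 had log2 6.43 and 6.69 at 0 and 80 mg/L in atnp01, against 7.32 and 8.27 in atnp02. WT had 7.19, 7.51 and 8.25 at 0, 40 and 80 mg/L. Here atnp01 was the line that stood apart, below both atnp02 and WT at each dose. The level at 80 mg/L was 0.95 above that at 0 mg/L in atnp02 and 0.25 above it in atnp01. The difference was -0.89 at 0 mg/L and -1.58 at 80 mg/L, with a limma coefficient of -1.24 (SE 0.15) and an adjusted p of 0.0310. The call was kept in 2 of 10 other settings, with adjusted p from 0.00146 to 1.

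The next genes in order of limma p did not pass. SAG29, the sucrose transporter SWEET15, which is known for its rise in senescing leaves, had log2 5.41 and 7.26 at 0 and 80 mg/L in atnp01, against 4.59 and 6.69 in atnp02 and 4.40, 6.98 and 6.68 in WT. UPB1, a bHLH regulator that controls peroxidases in the root, had 6.41 and 6.86 in atnp01, against 5.90 and 6.31 in atnp02 and 6.41, 6.41 and 6.65 in WT. AT5G55450, of the lipid transfer protein family, had 6.74 and 7.17 in atnp01, against 6.27 and 6.60 in atnp02 and 6.46, 4.82 and 5.31 in WT. These 3 genes had coefficients of 0.69, 0.53 and 0.51, each with a limma adjusted p of 0.0955, and each had both atnp01 arrays above the atnp02 array of the same dose by similar amounts. On the other side were AT1G04040, of the acid phosphatase family, at -0.84 (limma adjusted p = 0.117), and LCR68, a plant defensin, at -0.58 (0.118). AT1G04040 had 5.83 and 4.56 in atnp01, against 6.67 and 5.39 in atnp02 and 6.48, 6.20 and 5.25 in WT. The difference was nearly the same at both doses, at -0.84 and -0.83, although both lines were more than log2 1 lower at 80 mg/L. AT1G04040 reached log2 6 on the unexposed atnp02 array alone, so its sign at 0 mg/L was fixed. These 5 genes were named after their values were seen, from those with the lowest p below the calls.

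**Figure D2:**
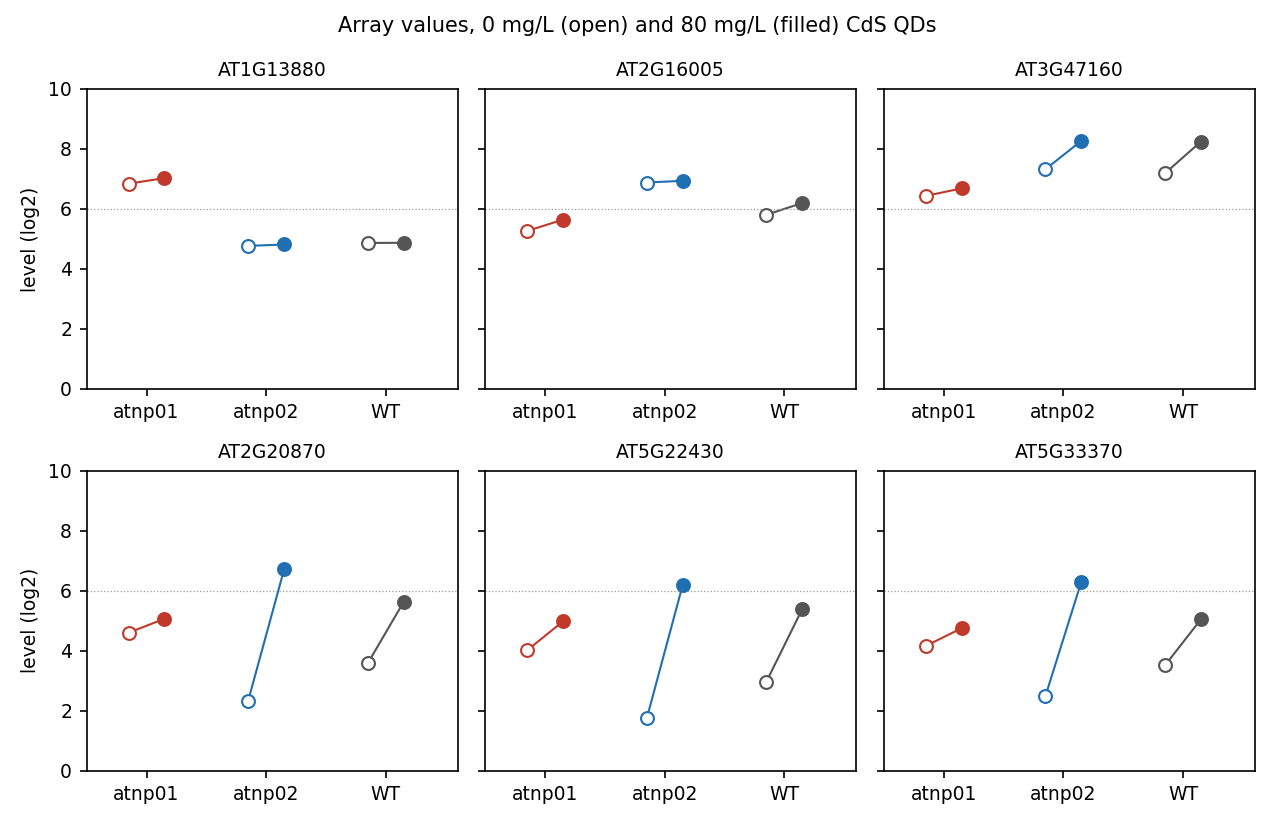
Log2 levels of the 3 genes called by limma (upper row) and of the 3 genes whose difference turned sign between doses (lower row), for atnp01, atnp02 and WT from left to right, each point 1 array, open at 0 mg/L and filled at 80 mg/L. The dotted line marks log2 6, and in the lower row the atnp02 line is the steepest while atnp01 is the flattest.

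There were 3 genes at least log2 1 apart in opposite directions at the 2 doses, and each reached log2 6 on the exposed atnp02 array alone. Being lower in atnp01 at 80 mg/L was thus a condition of entry, and the floor left only the sign at 0 mg/L open. AT2G20870, a putative cell wall protein, had log2 4.60 and 5.07 at 0 and 80 mg/L in atnp01, against 2.34 and 6.71 in atnp02 and 3.59, 5.65 and 5.63 in WT at 0, 40 and 80 mg/L. AT5G22430, of the Ole e 1 and extensin family, had 4.01 and 4.98 in atnp01, against 1.74 and 6.19 in atnp02 and 2.97, 5.28 and 5.40 in WT. AT5G33370, of the GDSL lipases, a family that includes enzymes building the cutin polymer, had 4.16 and 4.75 in atnp01, against 2.47 and 6.29 in atnp02 and 3.51, 5.16 and 5.04 in WT. For each of them atnp01 was the highest and atnp02 the lowest line at 0 mg/L, the order was turned at 80 mg/L, and WT lay between the mutants at both doses. The differences were 2.26 and -1.65 for AT2G20870, 2.27 and -1.21 for AT5G22430, and 1.68 and -1.54 for AT5G33370. The response to the dose was 4.37, 4.45 and 3.81 in atnp02 for these genes in the same order, and 0.47, 0.97 and 0.59 in atnp01. Each was below log2 3 on the atnp02 array at 0 mg/L, so these sizes are inexact. With values raised to log2 4 the differences at 0 mg/L became 0.60, 0.01 and 0.16, under log2 1 for all 3 genes. With 1 array a group the turn of sign was not tested.

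Another 6 genes parted the lines by log2 1 or more at 0 mg/L and not at 80 mg/L. PDF1.2b, a defensin that marks jasmonate and ethylene signalling, had log2 4.10 and 7.47 at 0 and 80 mg/L in atnp01, against 2.72 and 7.64 in atnp02 and 3.83, 6.73 and 8.26 in WT. Its probe set is of a kind that can also detect near-identical defensin genes, so the value may belong to several of them. JRG21, a jasmonate-regulated oxygenase, had 4.34 and 6.45 in atnp01, against 3.30 and 6.48 in atnp02 and 4.15, 6.64 and 5.90 in WT. CHI, a chitinase, had 5.93 and 6.66 in atnp01, against 4.88 and 6.70 in atnp02 and 5.61, 5.63 and 5.33 in WT. The differences of PDF1.2b, JRG21 and CHI were 1.38, 1.04 and 1.05 at 0 mg/L, and -0.17, -0.03 and -0.05 at 80 mg/L. With values raised to log2 4, those at 0 mg/L became 0.10 for PDF1.2b and 0.34 for JRG21, which were dim in unexposed atnp02, and 1.05 for CHI. The 25S ribosomal RNA probe set was 1.07 higher in atnp01 than in atnp02 at 0 mg/L too, and its part was not tested. AT4G16146 had 5.09 and 7.12 in atnp01, against 3.86 and 6.74 in atnp02, with differences of 1.23 and 0.38. AT3G28270, named after its values were seen, had 5.70 and 5.70 in atnp01, against 4.67 and 6.35 in atnp02, with differences of 1.04 and -0.64.

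The one gene of the 6 that was lower in atnp01 was BGLU28, a glucosidase that breaks down glucosinolates under sulfur shortage. It had log2 1.19 and 8.56 at 0 and 80 mg/L in atnp01, against 2.72 and 8.19 in atnp02 and 1.62, 8.89 and 7.95 in WT. At 0 mg/L all lines were dim, so the difference of -1.53 there has no exact size, while at 80 mg/L it was 0.37. In both lines the exposed array was more than log2 5 above the unexposed one.

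A further 5 genes parted the lines by log2 1 or more at 80 mg/L and not at 0 mg/L, 1 of them AT3G47160 above. AT4G19430 had log2 3.36 and 3.73 at 0 and 80 mg/L in atnp01, against 3.53 and 6.42 in atnp02 and 3.09, 4.91 and 4.61 in WT, and its difference of -2.69 at 80 mg/L stood beside -0.17 at 0 mg/L. This was the widest gap at 80 mg/L among the 2060 genes, and the exposed WT arrays lay between the exposed lines. AT4G19430 reached log2 6 on the exposed atnp02 array alone, so the floor fixed the sign at 80 mg/L. AT2G43590, of the chitinase family, had 3.38 and 6.57 in atnp01, against 4.15 and 8.07 in atnp02 and 4.96, 7.51 and 7.77 in WT, with differences of -0.78 and -1.50. Here atnp01 was the lowest of the 3 lines at both doses, and the limma adjusted p over both was 0.118. AOP3, an enzyme that modifies glucosinolate side chains, had 8.21 and 5.84 in atnp01, against 8.32 and 6.86 in atnp02 and 8.60, 7.40 and 5.90 in WT. The exposed AOP3 level of atnp01 was beside that of WT and atnp02 was above both. AT1G73120, named after its values were seen, was the only one of the 5 higher in atnp01, with 5.42 and 4.39 in atnp01, against 6.11 and 3.13 in atnp02.

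Many of these differences rest on dim values, which the rule itself favours, since a gene needs only 1 bright array. A gene that reached log2 6 in 1 line alone was also bound to be higher in that line on the array that reached it. Among the 16 this holds for AT1G13880, AT2G16005, AT2G20870, AT5G22430, AT5G33370, AT3G28270, AT4G19430 and AT1G73120. The dimmest of the 4 mutant values was below log2 4 for 10 of the 16 genes and below log2 3 for 5. With values below log2 4 raised to log2 4, the genes at least log2 1 apart numbered 5 at 0 mg/L and 9 at 80 mg/L.

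Lists of genes for pathways that bear on cadmium, defence and photosynthesis were read next. Of 22 lists, 18 had tested members, 97 genes in all, and the limma fit called 0 of the 97 over both doses, beside 0.146% of all genes tested. At an unadjusted p under 0.05 there were 24 of the 97, beside 13.4% of all genes tested, and 13 of the 24 were plastid-encoded. At least log2 1 apart were 3 of the 97 at 0 mg/L (3.09%, beside 0.534% of all genes tested), BGLU28, PDF1.2b and CHI, and 2 at 80 mg/L (2.06%, beside 0.485%), AT2G43590 and AOP3. The lists were drawn up with earlier results known and a member could pass the floor through 1 array alone, so these shares support nothing about the pathways. Genes on lists of heat shock, flavonoids, phosphate and nitrogen had no tested member. Over all genes tested, the median difference was 0.06 at 0 mg/L and 0.03 at 80 mg/L, and the medians of the lists are set beside these.

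Glucosinolates are sulfur-rich defence compounds of the cabbage family, and 4 of 28 genes on their list were tested. All 4 were lower in atnp01 at both doses, with a median difference of -0.11 at 0 mg/L and -0.63 at 80 mg/L. Of all genes tested, 61.8% were higher in atnp01 at 0 mg/L and 55.9% at 80 mg/L. BCAT4, which starts methionine chain elongation, had log2 9.56 and 8.10 at 0 and 80 mg/L in atnp01, against 9.73 and 8.89 in atnp02 and 9.79 and 8.00 in WT. Its differences were -0.16 and -0.79, and those of AT2G31790, of the glucosyltransferase family, were -0.11 and -0.48. UGT74B1, a glucosyltransferase of the core pathway, differed by -0.03 and -0.20, and AOP3 by -0.11 and -1.02. Of the 4 genes, 3 had an unadjusted limma p under 0.05, beside 13.4% of all genes tested, and none passed the limma fit. At 80 mg/L atnp02 had the higher BCAT4 level while atnp01 lay beside WT.

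Iron deficiency genes are induced when iron is short, and 2 of 22 on their list were tested. AT1G47400, which encodes a small peptide that promotes iron uptake, had log2 1.10 and 5.07 at 0 and 80 mg/L in atnp01, against 0.99 and 6.06 in atnp02 and 1.07 and 6.01 in WT. AT5G05250 had 2.25 and 6.70 in atnp01, against 2.56 and 7.10 in atnp02 and 1.95 and 7.10 in WT. At 80 mg/L both genes were lower in atnp01, by -0.99 and -0.39, with atnp02 at the WT level, and both were far higher than at 0 mg/L in every line. Neither passed the limma fit, and the values at 0 mg/L lay near the bottom of the scale. AT1G47400 reached log2 6 on the exposed atnp02 array alone, so being lower in atnp01 at 80 mg/L was fixed for it.

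Sulfur assimilation gave a median of -0.19 at 0 mg/L and -0.11 at 80 mg/L over 4 genes. APS4, which activates sulfate, had log2 7.31 and 5.19 at 0 and 80 mg/L in atnp01, against 7.32 and 5.38 in atnp02, and SIR, sulfite reductase, had 8.08 and 7.65 in atnp01, against 8.00 and 7.76 in atnp02. AT1G04770, a marker of sulfur limitation, had 5.17 and 6.78 in atnp01, against 5.53 and 6.89 in atnp02. Apart from the dim BGLU28 value at 0 mg/L, the lines stayed within log2 0.5 of each other on this list.

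Of the genes for metal chelation and transport, 3 of 19 were tested. MT1C, a metallothionein, which binds metals through cysteine, had log2 10.29 and 10.44 at 0 and 80 mg/L in atnp01, against 10.06 and 10.22 in atnp02 and 9.80 and 10.15 in WT. Its difference was small and alike at both doses, at 0.23 and 0.22, with a limma adjusted p of 0.235. The glutathione reductases GR1 and GR, which keep glutathione reduced, differed by -0.15 and -0.08 and by -0.01 and 0.27. The copper chaperone CCS, on a list of its own, differed by -0.03 and 0.27.

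Among cell wall loosening genes, the expansin EXPA4 had log2 5.91 and 5.09 at 0 and 80 mg/L in atnp01, against 6.37 and 5.65 in atnp02 and 5.67 and 6.12 in WT. EXPA8 had 7.51 and 5.30 in atnp01, against 7.79 and 5.65 in atnp02 and 8.30 and 7.24 in WT. Both expansins were lower in atnp01 at both doses, by -0.46 and -0.57 for EXPA4 and by -0.28 and -0.35 for EXPA8. XTH19, a xyloglucan endotransglucosylase, differed by -0.36 and 0.38. Their list had a median of -0.36 at 0 mg/L and -0.35 at 80 mg/L over the 3 genes tested of 21. Of these 3, 2 had an unadjusted limma p under 0.05, beside 13.4% of all genes tested, and none was called. EXPA4 and XTH19 reached log2 6 on the unexposed atnp02 array alone, so being lower in atnp01 at 0 mg/L was fixed for both.

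Reactive oxygen scavenging had 4 tested genes with medians of -0.24 at 0 mg/L and -0.04 at 80 mg/L. The methionine sulfoxide reductase MSRB5 had log2 6.25 and 8.68 at 0 and 80 mg/L in atnp01, against 6.91 and 8.70 in atnp02, and MSRB9 had 5.95 and 5.20 in atnp01, against 6.40 and 5.27 in atnp02. Both enzymes repair oxidised methionine, and their differences were -0.66 and -0.45 at 0 mg/L and -0.02 and -0.07 at 80 mg/L, all under log2 1 and not called. MSRB9 reached log2 6 on the unexposed atnp02 array alone, so its sign at 0 mg/L was fixed. The stromal and thylakoid ascorbate peroxidases SAPX and TAPX differed by -0.03 and -0.09 and by 0.15 and 0.04. Glutathione transferases, 4 tested of 33, had medians of -0.01 and -0.04. GSTU20 had 9.26 and 7.51 in atnp01, against 9.29 and 8.27 in atnp02, differences of -0.03 and -0.77, and GSTU16 differed by -0.17 and 0.38. GSTU16 reached log2 6 on the exposed atnp01 array alone, so its sign at 80 mg/L was fixed.

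Salicylate defence was tested through 3 genes of the chitinase family, CHI and AT2G43590 above and AT2G43620, which had log2 5.70 and 3.83 at 0 and 80 mg/L in atnp01, against 6.40 and 3.91 in atnp02. The family did not move one way, since at 0 mg/L CHI was higher in atnp01 and AT2G43590 and AT2G43620 were lower. AT2G43620 reached log2 6 on the unexposed atnp02 array alone, so its sign at 0 mg/L was fixed. Cold and dehydration genes were also mixed. LTI30, a dehydrin, had 7.02 and 7.19 in atnp01, against 6.58 and 7.08 in atnp02, with differences of 0.44 and 0.11, while COR15B differed by 0.29 and -0.26 and COR47 by -0.01 and -0.14. COR15B reached log2 6 on the exposed atnp02 array alone, so its sign at 80 mg/L was fixed.

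Sugar and energy genes were close in the lines at 80 mg/L. AMY1, an alpha-amylase that degrades starch, had log2 3.67 and 7.24 at 0 and 80 mg/L in atnp01, against 2.83 and 7.06 in atnp02, differences of 0.84 and 0.18. AT3G05400, of the sugar transporter family, differed by -0.66 and 0.21, and SWEET11, a sucrose exporter of the leaf phloem, by -0.12 and -0.26. The mitochondrial stress genes AT2G21640 and AER differed by -0.01 and 0.27 and by 0.01 and 0.24. The clock gene GI differed by 0.05 and -0.13, and the mitochondrial gene cox1 by -0.05 and -0.27. AT2G21640 reached log2 6 on the exposed atnp01 array alone, and cox1 on the exposed atnp02 array alone. The signs of AT2G21640 and cox1 at 80 mg/L were thus fixed.

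Nuclear genes of photosynthesis were close in the lines. All 10 tested of 43 lay between -0.04 and 0.33 at 0 mg/L and between -0.19 and 0.20 at 80 mg/L, with medians of 0.03 and 0.02. RCA, which activates the carbon-fixing enzyme Rubisco, had log2 11.61 and 11.49 at 0 and 80 mg/L in atnp01, against 11.62 and 11.46 in atnp02 and 11.61 and 11.46 in WT. PORB, a chlorophyll synthesis enzyme, gave the highest value of the list at 0 mg/L, with 7.64 and 8.10 in atnp01, against 7.31 and 8.23 in atnp02.

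Genes encoded in the plastid genome varied with the dose. Of 69 on the annotation 47 were tested, and limma called 0 of them over both doses. An unadjusted limma p under 0.05 was found for 13 of the 47, beside 13.4% of all genes tested. At 0 mg/L their median difference was 0.03, from -0.95 to 0.49, and 26 of the 47 were higher in atnp01, beside 61.8% of all genes tested. At 80 mg/L the median was 0.22, from -0.03 to 0.84, and 43 of the 47 were higher in atnp01, beside 55.9% of all genes tested. None of the 47 was log2 1 apart at either dose.

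A subset of the plastid genes was at least log2 1 higher at 80 than at 0 mg/L in a line, and in these 25 genes the sign turned with the dose. At 0 mg/L 19 of the 25 were lower in atnp01, with a median of -0.17, and at 80 mg/L 24 were higher in atnp01, with a median of 0.31. The response was larger in atnp01 for 24 of the 25, with a median of 2.05 in atnp01 against 1.36 in atnp02. These 25 were picked by the response, so their turn of sign is a description. The other 22 plastid genes had medians of 0.17 at 0 mg/L and 0.09 at 80 mg/L.

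The photosystem I gene psaB had log2 8.20 and 10.67 at 0 and 80 mg/L in atnp01, against 8.97 and 10.42 in atnp02 and 9.11, 10.53 and 10.84 in WT. The ribosomal protein gene rps2 had 3.50 and 6.55 in atnp01, against 4.45 and 6.28 in atnp02 and 4.83, 6.39 and 6.70 in WT. In both genes the atnp01 array at 0 mg/L was the lowest of the 7, and the exposed arrays were close together. The RNA polymerase subunit gene rpoC1 had 5.47 and 7.52 in atnp01, against 5.42 and 6.76 in atnp02 and 6.07, 7.39 and 7.41 in WT, so that for this gene the exposed atnp02 array was the one that stood low. The photosystem I gene psaI did the same, with differences of 0.06 at 0 mg/L and 0.84 at 80 mg/L.

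The labelling starts from the poly-A tail, which most plastid transcripts lack, and the control probe sets moved too. The 24 probe sets of the poly-A spike-in controls averaged log2 3.71 and 2.99 at 0 and 80 mg/L in atnp01, against 3.38 and 2.91 in atnp02. They were 0.32 higher in atnp01 at 0 mg/L and 0.08 higher at 80 mg/L. The 18 hybridization probe sets differed by 0.14 at 0 mg/L and by less than log2 0.01 at 80 mg/L. The 25S ribosomal RNA probe set had 8.01 and 8.02 in atnp01, against 6.94 and 8.01 in atnp02, so the atnp02 array at 0 mg/L stood low by 1.07. The part of labelling and RNA quality in the plastid differences was not tested.

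**Figure D3:**
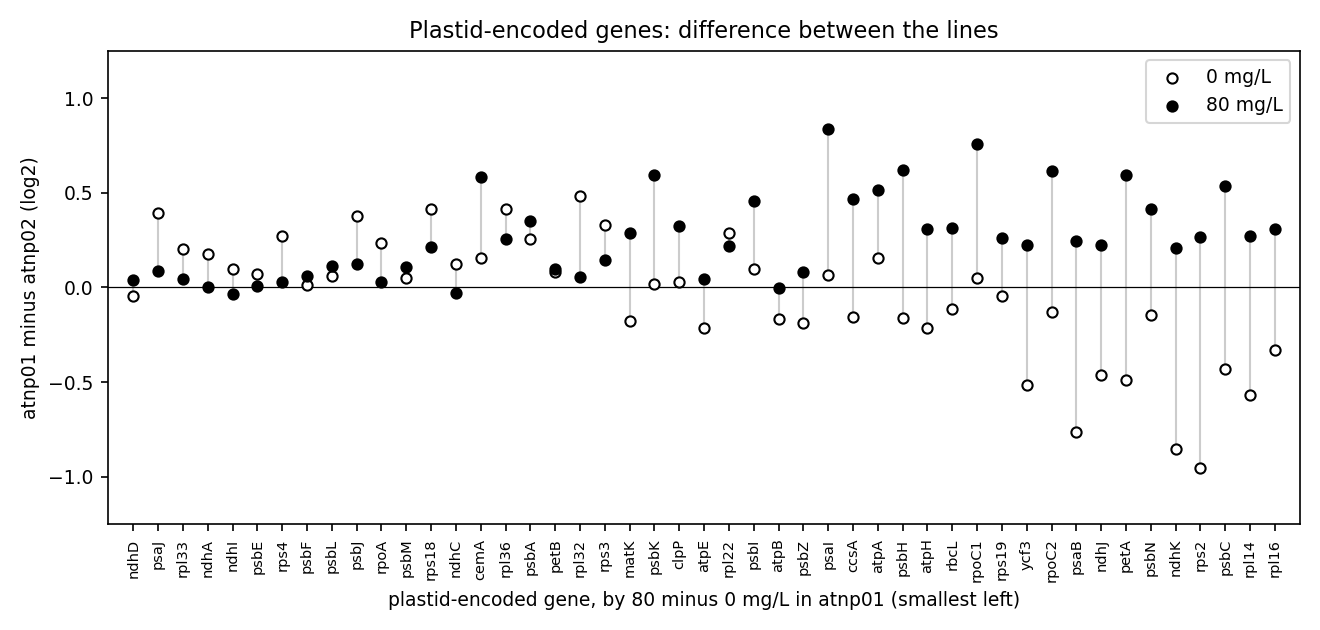
Difference atnp01 minus atnp02 in log2 units for each of the 47 tested plastid-encoded genes, open at 0 mg/L and filled at 80 mg/L, ordered from left to right by how far atnp01 at 80 mg/L lay above atnp01 at 0 mg/L. At the right, where the response is largest, open points lie mostly below 0 and filled points above it, while 43 of the 47 filled points in all are above 0.

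Markers of tissue were few on the annotation. All 4 root markers on it were lower in atnp01 at both doses, and 2 of them were tested: PYK10, the glucosidase of root and hypocotyl bodies, had log2 10.64 and 10.35 at 0 and 80 mg/L in atnp01, against 10.70 and 10.49 in atnp02, and the peroxidase AT4G30170 had 6.37 and 4.27 in atnp01, against 6.95 and 4.51 in atnp02. PYK10 differed by -0.06 at 0 mg/L and -0.14 at 80 mg/L, and AT4G30170 by -0.58 and -0.24, with a limma adjusted p of 0.350 for AT4G30170. Of all genes tested, 61.8% were higher in atnp01 at 0 mg/L and 55.9% at 80 mg/L. The part of root tissue in the differences between the lines was not tested. The leaf markers RCA and SBPASE differed by at most 0.16. No marker of flowers was on the annotation, so flower tissue could not be checked. Of 14 seed markers 1 was on it, the oleosin AT3G01570, which coats seed oil bodies, with 1.39 and 1.48 in atnp01, against 1.48 and 3.62 in atnp02. The oleosin is dim, and yet it was high on the exposed atnp02 array alone.

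That array held probe sets high on it alone, seen when genes below the floor were described as well, a step added after the data were examined. Probe sets at log2 3 or above on an array and at least log2 2 above each of the other 6 were counted. Of all non-control probe sets, 29 (0.127%) were so on the atnp02 array at 80 mg/L, and 0 on each of the others. Their levels on that array ran from 3.01 to 8.51 with a median of 4.68, while the medians of the same 29 on the other arrays lay between 1.02 and 1.20. The annotation names 12 of them, and 17, among them all 8 at log2 6 or above, are not named here.

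Of the 12 named genes, 1 was on the seed marker list, the oleosin AT3G01570, and those described here were picked after their values were seen. AT2G28490, a storage protein of the cupin family, had log2 1.13 and 0.85 at 0 and 80 mg/L in atnp01, against 1.77 and 4.68 in atnp02 and 1.03, 0.91 and 0.88 in WT. AT1G03890, of the cruciferin storage proteins, had 0.98 and 1.12 in atnp01, against 1.10 and 4.34 in atnp02. AT3G15670, of the late embryogenesis abundant proteins, which accumulate as seeds dry, had 1.10 and 0.81 in atnp01, against 1.10 and 3.97 in atnp02. On the 6 other arrays these genes, like the oleosin, were below log2 2. The other named genes were AT2G15010, AT1G04560, AT5G38160, AT1G47540, AT1G14950, AT1G14940, AT1G54870 and CES, with levels from 3.01 to 4.77 on that array. Whether seed tissue had a part in the difference between the exposed lines was not tested, and with 1 array it cannot be told apart from the line.

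**Figure D4:**
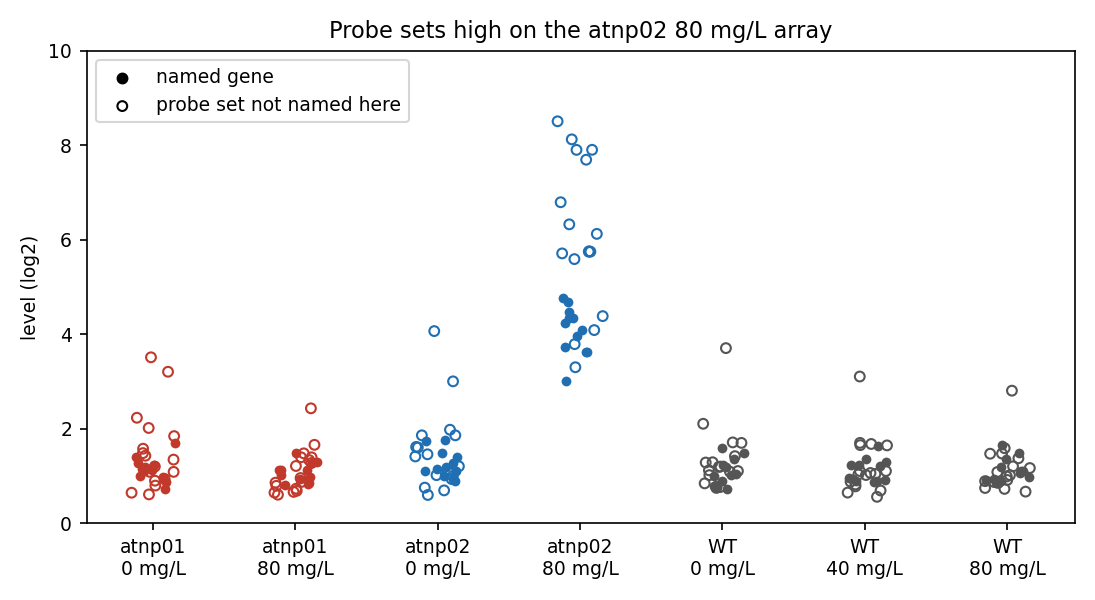
Log2 levels, on each of the 7 arrays, of the 29 probe sets at log2 3 or above and at least log2 2 above all other arrays on the atnp02 array at 80 mg/L. Filled points are the 12 with a named gene and open points the 17 without. Horizontal spread within an array is only for legibility. The 29 lie between 3.01 and 8.51 on that array, with medians of 1.02 to 1.20 on the others.

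Genes below the floor were counted in the same way. Among 4829 genes whose brightest mutant array lay between log2 3 and 6, 24 (0.497%) were at least log2 1 apart at 0 mg/L, 15 higher and 9 lower in atnp01. In the exposed pair 50 (1.04%) were, 5 higher and 45 lower in atnp01. At least log2 2 apart were 2 genes (0.0414%) at 0 mg/L and 17 (0.352%) at 80 mg/L, and 16 of the 17 were lower in atnp01. These 16 include the 12 named genes high on the exposed atnp02 array, which reached log2 3 through that array alone and so had to be lower in atnp01, and 4 others. Without the 12, counted after the data were examined, 5 genes were at least log2 1 higher and 33 lower in atnp01 at 80 mg/L, against 15 and 9 at 0 mg/L. GILT and AT3G28750, of the 4 others, reached log2 3 on the exposed atnp02 array alone among the mutant arrays. Their direction at 80 mg/L was thus fixed too. The 33 still hold such genes, so the count is a description only.

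Among the 4 others, 3 were at least as high in WT as in atnp02 at 80 mg/L, and at 40 mg/L WT lay between atnp01 and atnp02 at 80 mg/L. THI2.1, an antimicrobial thionin, had log2 3.25 and 2.30 at 0 and 80 mg/L in atnp01, against 1.30 and 5.37 in atnp02 and 0.87, 4.92 and 5.39 in WT. GILT, which the gene table lists as a lysosomal thiol reductase, had 1.22 and 0.74 in atnp01, against 1.16 and 4.96 in atnp02 and 1.09, 3.63 and 5.25 in WT. AT3G28750 had 1.57 and 1.12 in atnp01, against 1.04 and 3.17 in atnp02 and 1.12, 3.06 and 3.79 in WT. In WT and atnp02 all 3 were higher on every exposed array than on the unexposed one, and in atnp01 none was. The 3 genes were picked for a lower level in atnp01 than in atnp02 at 80 mg/L, so this contrast of the lines is a description only. Among genes at log2 3 or above on an exposed array, these were the only ones at least log2 2 lower in atnp01 at 80 mg/L than in both other lines. AT1G13880 and AT3G27473 were the only ones that far higher in it. All 13355 genes were screened, and by the same rule 12 were higher and 0 lower in atnp02, and 1 higher and 0 lower in WT. A gene higher in 1 line could enter through the array of that line alone, as AT3G27473 did. The remaining 1 of the 4, AT2G33850, had 3.92 and 3.58 in atnp01, against 4.54 and 5.99 in atnp02 and 3.78, 4.97 and 4.96 in WT.

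Below the floor, 3 further genes were at least log2 1 apart in the same direction at both doses, all of them dim in at least 1 line. With no floor, 5 of all 13355 genes were so, beside 0.0971% of the genes tested at the floor. No level was required for this count, and AT2G26630 was not among the 4829 genes above. AT3G27473 had log2 2.43 and 3.14 at 0 and 80 mg/L in atnp01, against 0.99 and 0.99 in atnp02 and 0.81, 0.99 and 0.95 in WT, so like AT1G13880 it was above the other lines at both doses. AT3G05730, of the defensin-like family, had 1.85 and 1.42 in atnp01, against 5.16 and 2.56 in atnp02 and 4.72, 2.40 and 2.78 in WT. Its differences were -3.31 at 0 mg/L and -1.14 at 80 mg/L. AT2G26630 was below log2 3 on every array, with 2.54 and 1.99 in atnp01, against 1.37 and 0.94 in atnp02, so its differences of 1.17 and 1.05 have no exact size. AT1G66850, of the lipid transfer protein family, turned sign between doses, with 4.34 and 4.05 in atnp01, against 2.05 and 5.90 in atnp02 and 2.74, 5.78 and 6.13 in WT.

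Some features of the mutants did not part them. AT2G15560 had log2 2.05 and 1.95 at 0 and 80 mg/L in atnp01, against 2.24 and 1.95 in atnp02 and 7.13, 7.02 and 7.23 in WT, so it was low in both mutants alike. Among 2469 unnamed probe sets at log2 6 or above, 20 (0.81%) were at least log2 1 apart at 0 mg/L and 20 at 80 mg/L, and 0 were so at both doses in the same direction. The series as a whole was even: array medians lay between 3.39 and 3.47, between 16.5% and 17.0% of probe sets per array reached log2 6, and the levels of the 2 lines correlated across genes at 0.979 at 0 mg/L and 0.981 at 80 mg/L.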

How the data were processed

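Total RNA of seedlings was hybridised to 7 ATH1 arrays, 1 per group. Per the submitters' processing notes, RMA in Affymetrix Expression Console 1.1 gave the deposited log2 values. Their background step and any step after RMA are not given in the sources consulted.

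Of 22810 probe sets, 64 were controls, 13513 were listed with 1 gene, 503 with several and 8730 with none. Names came from the gene table of TAIR10.1 (13436 matched). Of 147 genes with several probe sets, the one with the highest mean was used. The 4 mutant arrays were fitted in limma 3.58.1 under R 4.3.3 with line and dose as terms, an intensity trend in the moderation and Benjamini-Hochberg adjustment over 2060 genes. On simulated data for this comparison, with 200 of 2060 genes changed, it found 79.1% of those changed by log2 0.5 and 97.9% of those changed by log2 1, with 7.2% false calls. These shares leave out the spread between samples of a group, since no group has a second sample. In the fit of the 4 arrays, AT2G43590 at -1.14 and AT1G04040 at -0.84 were not called. What share of the real differences between the lines this fit finds was not tested. The dose block is part of the design, since both lines were grown at the same doses.

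Genes named are those log2 1 apart at both doses, at 1 dose with under 0.5 at the other, or with opposite signs, those called, and up to 4 per list. Members and lists were chosen with earlier results of these data known. Precision is limited by the number of arrays.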

Additional observations from a re-analysis of the deposited data

Results flagged for a closer look

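In 3 genes the lines parted in opposite directions at the 2 doses, on 1 array a group, and the difference between doses was not tested. Each reached log2 6 on the exposed atnp02 array alone, so the floor fixed the sign at 80 mg/L. For AT2G20870, atnp01 minus atnp02 was 2.26 at 0 mg/L and -1.65 at 80 mg/L on the log2 scale. For AT5G22430 it was 2.27 and -1.21, and for AT5G33370 it was 1.68 and -1.54.

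Outside the gene comparisons, 2 signals lay above their controls. The control probe set for U12639 averaged log2 7.22 over the 4 mutant arrays, with 7.20 and 7.25 at 0 and 80 mg/L in atnp01 and 7.10 and 7.31 in atnp02, against 1.24, 1.56 and 1.03 in WT at 0, 40 and 80 mg/L. What this probe set targets is not annotated in the files used here. On the atnp02 array at 80 mg/L, 29 probe sets at log2 3 or above were at least log2 2 above every other array.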

How the results depend on the processing

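No single array could be left out, since each group has 1. The 3 limma calls became 0 without the dose block (7 genes at an unadjusted p under 0.05), 0 without a floor (784 genes), 1 without the intensity trend, 1 over all non-control probe sets and 11 (4 higher and 7 lower in atnp01) after quantile normalization, among them the 3. Cyclic loess left 2 calls, 1 in each direction. With the floor at log2 5, at log2 7, with robust moderation or with WT in the fit, 2 calls were left. Genes at least log2 1 apart at 0 mg/L numbered 11, against 38 with no floor, 20 and 4 with floors of log2 5 and 7, 31 over all probe sets and 5 with values raised to log2 4. At 80 mg/L they numbered 10, against 83, 22, 4 and 30 under the first 4 of these settings. The 2 that kept direction at both doses became 5 with no floor and 1 with a floor of log2 7. No named gene changed sign in a fit or, where log2 1 apart, under another normalization. The call was lost in 8 of 10 settings for AT3G47160, 4 of 9 for AT2G16005 and 2 of 10 for AT1G13880, and 7 other named genes gained one after quantile normalization. Dim values near the bottom of the scale limit the size of any difference that rests on them.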
